A study of Mus musculus with 6 samples.

Results

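The genes described here encode the machinery that fills, tethers, docks and fuses synaptic vesicles and other secretory vesicles, and that recovers the membrane afterwards. The set was drawn up by gene symbol from what the proteins do, and a gene counted as measured where a transcript cluster (the array's probes for 1 transcription unit) was annotated to that symbol alone. Of 57 listed genes 56 were measured, among 19938 named genes in all. *Vamp2*, which encodes the major vesicle SNARE of brain synapses, shares its cluster with other symbols and was not analysed here.

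N2A cells, a mouse neuroblastoma line grown in 10% serum, received 1.5 µg of an shRNA expression construct by transient transfection. The hairpin targeted the long non-coding RNA *Paupar* in the knockdown group (n = 3) and nothing in the control group, which had a non-targeting vector (n = 3). RNA was taken 2.5 days later, and each sample was run on 1 Affymetrix Mouse Gene 1.0 ST array. For these arrays a single hairpin vector against *Paupar* was used in a single cell line. The share of cells that took up the vector is not given in the sources used here, so each value averages transfected and untransfected cells. *Paupar* itself has no named cluster in this annotation, and the depth of the knockdown was not analysed here.

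A synaptic vesicle is loaded by proton-driven transporters, held near the release site by synapsins, and docked at the active zone by scaffolds such as RIM and by the priming factor Munc13. Fusion is driven by a complex of SNARE proteins, in which a VAMP on the vesicle zippers with a syntaxin and a SNAP25-family protein on the plasma membrane. Calcium entry is sensed by synaptotagmins, complexins hold or assist the assembled SNAREs, and the ATPase NSF with its SNAP adaptors takes the spent complex apart. Many of the same proteins, or close relatives of them, serve the release of dense-core vesicles in neuroendocrine cells and the everyday delivery of membrane in all cells.

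The deposited values are log2 expression levels, in which a difference of 1 is a doubling. The 6 arrays were alike over all named genes, with medians between 7.85 and 7.92 and pairwise correlations between 0.990 and 0.998 across genes. Markers of the line were read off the arrays, with no reference level to say which are present. *Stmn2*, a neuronal tubulin-binding protein, averaged 13.07 in knockdown and 13.22 in control arrays, and *Chga*, a dense-core vesicle granin, 12.78 and 13.12. The neurofilament genes *Nefl* and *Nefm* averaged 5.89 and 5.79 in knockdown arrays and 5.68 and 5.72 in control arrays. Levels of different genes rest on different probes and are not set against each other. Of 26 measured markers of other cell types (blood, endothelium, muscle, fibroblasts and glia), 0 passed the test described below (limma). That test reads change between the groups and not presence. In the limma fit to all named genes 2 of the 26 had an unadjusted p under 0.05, as had 3669 of all 19938 genes. Control replicate 1 stood apart in the DNA replication genes, whose mean over 34 genes lay 0.35 below the control mean there, against 0.19 and 0.16 above it in the other controls.

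In knockdown cells 2 synapsins, 2 SNAREs and 2 calcium sensors were lower, and another SNARE and a complexin were higher. By limma with Benjamini-Hochberg adjustment at 0.05, 6 of 56 measured members fell (*Snap23*, *Vamp1*, *Syt1*, *Syn2*, *Syt7* and *Syn3*) and 2 rose (*Vamp3* and *Cplx1*). A further 27 did not pass the test, and 21 lay below the variance filter, which removed the 50% of genes that varied least over the 6 arrays. Of the 35 members past that filter 6 (17.1%) fell and 2 rose, and of all 9969 genes past it 5.16% fell and 2.39% rose. With no variance filter, 5 members fell (8.93%, without *Syn2*) and 2 rose (3.57%), against 2.1% and 0.973% of all 19938 genes. The median log2 fold change, knockdown minus control, was -0.09 over the members and 0.03 over all named genes. When clusters with no or several gene symbols were kept in the fit, 0 members and 0 genes of any kind passed in limma. Of the 32 members past the filter in that fit 21 had an unadjusted p under 0.05, as had 2833 of all 16852 features.

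More members were lower than higher. In 37 of the 56 members (66.1%) the knockdown mean was the lower one, against 41.6% of all named genes. In 22 members (39.3%) every knockdown array lay below every control array, compared with 10.8% of all named genes. Every knockdown array lay above every control array in 6 members (10.7%), against 12.8% of all named genes. Of the 150 other measured genes of vesicle traffic described below, 21.3% were lower and 8% higher without overlap. Among 13 measured markers of the line these shares were 30.8% and 0%. The mean of the 56 members, each set against its own control mean, was -0.15, -0.15 and -0.09 in knockdown replicates 1 to 3, against 0.03, -0.05 and 0.02 in control replicates 1 to 3. Knockdown replicate 3 was the knockdown array nearest to the controls in 6 of the 6 members that fell and in 15 of the 22 that were lower without overlap. The 34 DNA replication genes had the same array nearest to the controls, with 0.59, 0.57 and 0.39 in the knockdown arrays. Of the 32 DNA replication genes past the filter 14 rose, against 2.39% of all 9969 genes past it. Which knockdown array lay nearest to the controls was not worked out over all genes. Because these are bulk samples, fewer cells with a transcript and less of it in each cell cannot be told apart.

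**Figure D1:**
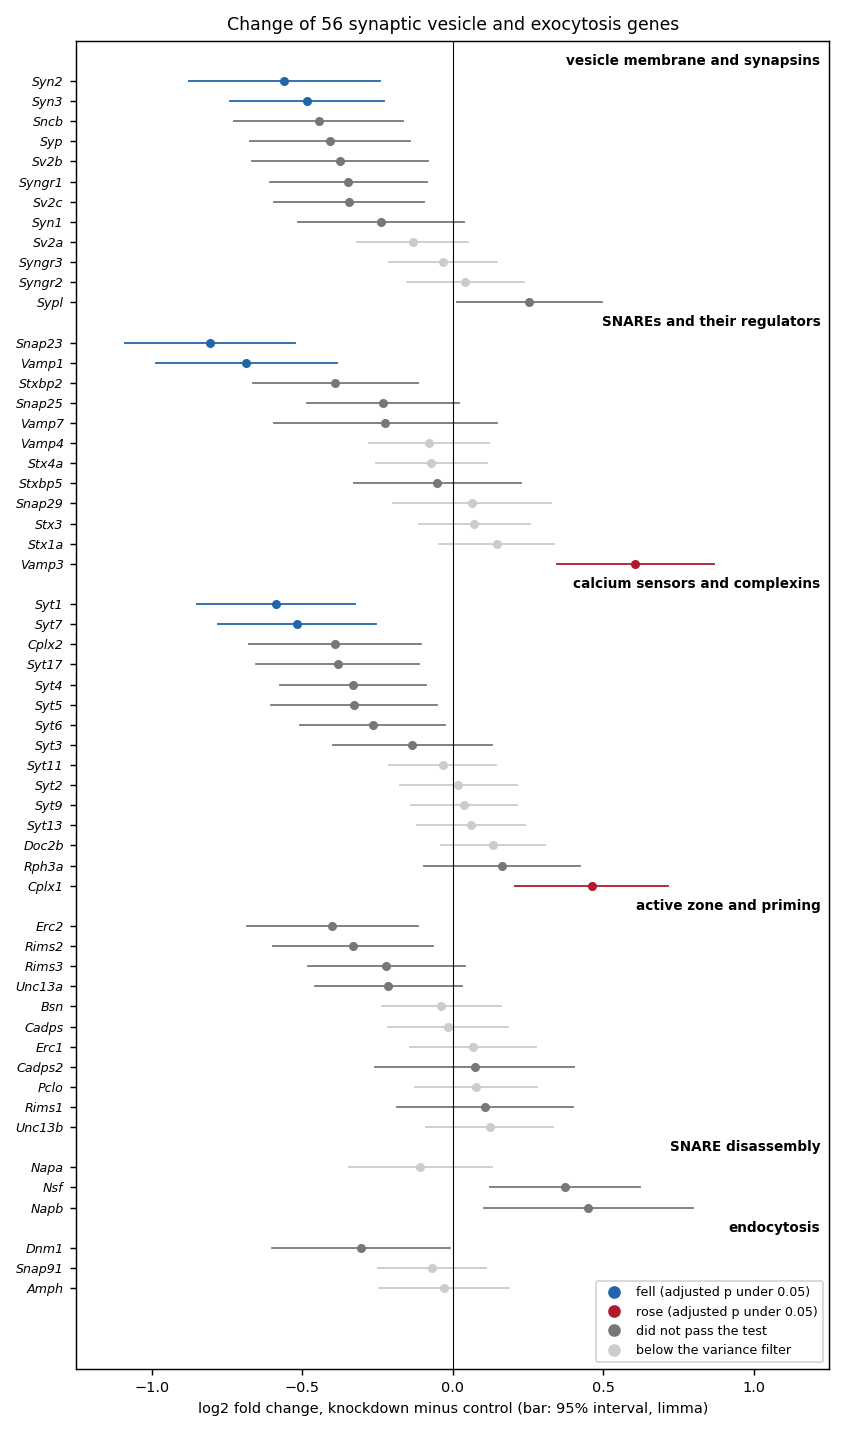
Log2 fold change, knockdown minus control, of the 56 measured members grouped by role, with the 95% interval from limma (for genes below the variance filter, from a fit to all 19938 genes). Blue points mark the 6 members that fell and red points the 2 that rose, dark grey the 27 that did not pass the test and light grey the 21 below the filter, and the synapsins and vesicle membrane proteins in the top block lie mostly left of 0.

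The proximal promoters of 5 members that changed, and of *Syn1*, a synapsin that did not pass the test, are printed so that their motif content can be compared. They are the 250 bases before the start site from RefSeq (GRCm38.p6), read 5′ to 3′ on the gene's own strand (from the start farthest upstream where the table gives 2), and capitals mark the motifs that were searched on both strands: the GC box GGGCGG, the CCAAT box CCAAT, the E-boxes CACGTG and CAGCTG, the cyclic AMP response element TGACGTCA and its shorter core TGACG, and the left and right parts of the RE1 element, TTCAGCACC and GGACAGC. The core TGACG lies within TGACGTCA, so these overlap.
*Snap23*, chr2:120567421-120567670, plus strand: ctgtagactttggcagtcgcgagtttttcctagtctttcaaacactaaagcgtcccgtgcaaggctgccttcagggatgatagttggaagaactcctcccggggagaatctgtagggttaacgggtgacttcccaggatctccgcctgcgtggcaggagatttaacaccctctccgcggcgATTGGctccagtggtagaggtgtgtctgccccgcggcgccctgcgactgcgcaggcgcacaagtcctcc
*Vamp1*, chr6:125215331-125215580, plus strand: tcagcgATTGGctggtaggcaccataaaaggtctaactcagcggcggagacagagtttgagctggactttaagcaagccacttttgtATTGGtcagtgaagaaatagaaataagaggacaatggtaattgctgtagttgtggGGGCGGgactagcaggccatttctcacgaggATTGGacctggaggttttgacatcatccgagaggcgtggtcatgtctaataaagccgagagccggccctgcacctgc
*Syt1*, chr10:109010976-109011225, minus strand: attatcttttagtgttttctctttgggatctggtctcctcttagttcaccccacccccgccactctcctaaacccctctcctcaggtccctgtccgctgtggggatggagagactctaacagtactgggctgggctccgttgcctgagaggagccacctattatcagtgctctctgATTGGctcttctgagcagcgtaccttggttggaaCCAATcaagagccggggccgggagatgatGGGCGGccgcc
*Syn2*, chr6:115134652-115134901, plus strand: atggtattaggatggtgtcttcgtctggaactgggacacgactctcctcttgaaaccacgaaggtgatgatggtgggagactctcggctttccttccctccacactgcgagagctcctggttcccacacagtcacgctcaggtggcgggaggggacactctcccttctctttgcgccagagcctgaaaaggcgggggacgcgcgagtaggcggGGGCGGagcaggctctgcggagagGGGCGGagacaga
*Cplx1*, chr5:108550028-108550277, minus strand: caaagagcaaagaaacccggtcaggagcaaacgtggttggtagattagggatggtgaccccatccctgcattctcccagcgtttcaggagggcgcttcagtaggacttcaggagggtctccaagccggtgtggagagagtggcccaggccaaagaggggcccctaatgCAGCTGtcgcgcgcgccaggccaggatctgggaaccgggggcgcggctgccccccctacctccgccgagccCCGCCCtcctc
*Syn1*, chrX:20920919-20921168, minus strand: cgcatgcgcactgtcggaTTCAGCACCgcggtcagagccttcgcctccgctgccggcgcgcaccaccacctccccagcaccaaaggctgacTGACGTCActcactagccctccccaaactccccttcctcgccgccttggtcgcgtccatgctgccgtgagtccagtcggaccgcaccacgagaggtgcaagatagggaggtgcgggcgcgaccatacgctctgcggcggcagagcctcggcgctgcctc

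In *Snap23* the only match was a CCAAT box on the opposite strand, 69 bases before the start. *Vamp1* held CCAAT boxes 244, 163 and 77 bases before the start, all on the opposite strand, and a GC box at 108. *Syt1* held CCAAT boxes at 74 and 40 and a GC box at 11. The printed *Syn2* sequence had no CCAAT box and held GC boxes at 37 and 13, and *Cplx1* held CAGCTG at 82 and a GC box at 11. The 300 bases at the other *Syn2* start held 2 CCAAT boxes and 0 GC boxes. Those at the other *Syt1* start held 0 of either and 1 CAGCTG. The *Syn1* promoter carried TGACGTCA at 159 and the left part of an RE1 at 232. RE1 is the element bound by REST, a repressor of neuronal genes in non-neuronal cells.

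The table holds 56 windows of 300 bases for 44 of the 57 members, and the motif shares below are over those windows and over all 32851 windows. GGGCGG occurred in 64.3% of the members' windows, against 35.7% of all windows, and CAGCTG in 25% against 16.3%. CACGTG occurred in 16.1% of the members' windows, against 7.15% of all. CCAAT, which was added to the search after the sequences had been read, went the other way, with 23.2% of the members' windows and 37.4% of all. TGACGTCA was found in 3.57% of the members' windows and in 1.79% of all, and TGACG in 21.4% against 20.8%. TTCAGCACC was found in 2 members, *Syn1* and *Unc13a* (3.57% of windows, against 0.371% of all), and GGACAGC in 12.5% against 6.56%. The 7 member windows with GGACAGC belonged to only 4 of the 44 members, as *Syt6* and *Rph3a* each held it in several windows.  A match describes the letters in the window only.

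Among the SNAREs, the proteins that pull membranes together, the pattern was split. *Snap23*, *Vamp1* and *Vamp3* passed the test, 4 members did not, and 5 were below the filter. Past the filter, 5.16% of all 9969 genes fell and 2.39% rose. *Snap23* encodes the relative of SNAP25 that most cells use for fusion at the plasma membrane, and it had the largest difference of the 56. It read 9.63, 9.83 and 10.06 in knockdown replicates 1 to 3, against 10.69, 10.55 and 10.69 in control replicates 1 to 3. All knockdown arrays were below all controls, with knockdown replicate 3 the nearest. *Snap23* was 1.75-fold lower in knockdown cells, a log2 fold change of -0.81 (SE 0.13, adjusted p = 0.00364).

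*Snap25*, the plasma membrane SNARE of neurons, measured 12.65, 12.68 and 12.80 in knockdown arrays, against 13.00, 12.83 and 13.00 in control arrays. The groups did not overlap, but only just, and the log2 fold change of -0.23 (95% interval -0.48 to 0.02) did not pass the test. *Snap29*, which serves fusion inside the cell, was below the filter at 0.06.

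The vesicle-side SNAREs moved in both directions. *Vamp1*, a synaptic VAMP, read 8.03, 7.93 and 8.29 in knockdown arrays, against 9.00, 8.60 and 8.70 in control arrays. The highest knockdown array was clearly under the lowest control, and the log2 fold change was -0.69 (SE 0.14, adjusted p = 0.0122). *Vamp3*, or cellubrevin, the VAMP of recycling endosomes, read 11.45, 11.59 and 11.58 in knockdown arrays, against 11.10, 10.83 and 10.88 in control arrays. It was 1.52-fold higher in knockdown cells, with a log2 fold change of 0.61 (SE 0.12, adjusted p = 0.0113) and no overlap. *Vamp4*, of the trans-Golgi network, and *Vamp7*, of late endosomes and lysosomes, had log2 fold changes of -0.08 and -0.22, and their groups overlapped. *Vamp7* had an interval of -0.60 to 0.15, with values of 10.02, 9.54 and 10.20 in knockdown arrays, against 9.83, 10.37 and 10.23 in control arrays.

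The plasma membrane syntaxins differed little. *Stx1a*, the neuronal partner of SNAP25, had a log2 fold change of 0.15, *Stx3* of 0.07 and *Stx4a* of -0.07, all below the variance filter. Their 95% intervals in the fit to all genes ran from -0.05 to 0.34, from -0.11 to 0.25 and from -0.26 to 0.11. *Stxbp2* encodes Munc18-2, which binds syntaxins outside the synapse, and read 9.89, 9.85 and 10.21 in knockdown arrays, against 10.42, 10.32 and 10.37 in control arrays. Its groups did not overlap, and its log2 fold change of -0.39 (95% interval -0.66 to -0.12) had an adjusted p of 0.0763. *Stxbp5*, or tomosyn, an inhibitor of SNARE assembly, was at -0.05 with overlapping groups.

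**Figure D2:**
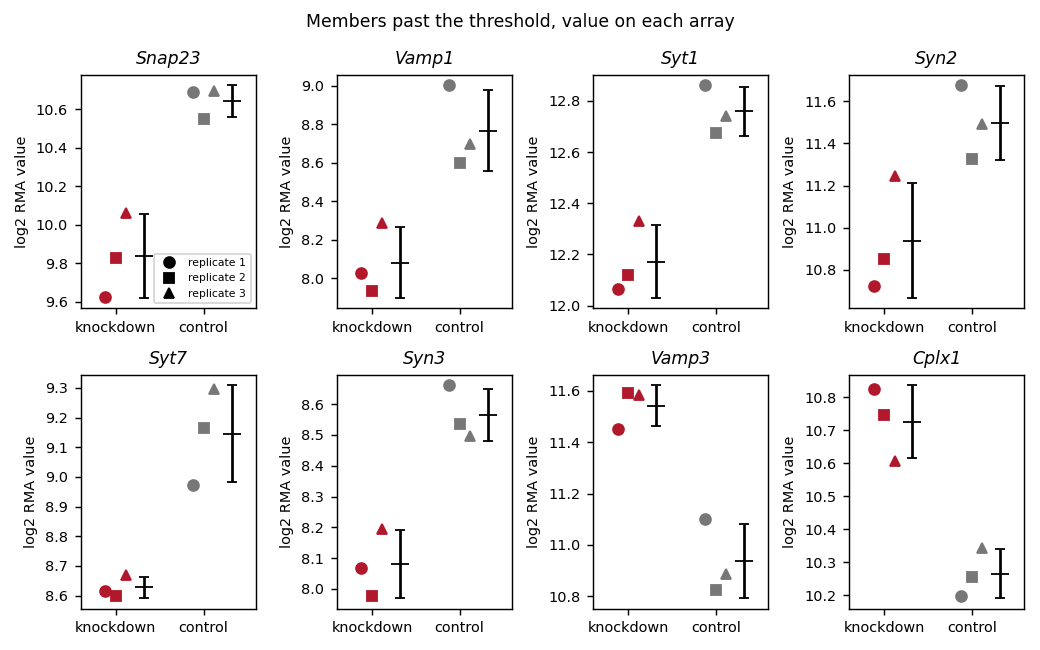
Log2 value of each of the 8 members that passed the test, on each knockdown array (red, left) and each control array (grey, right), with the mean and SD of 3 arrays beside them in black and the symbol giving the replicate number. No group overlaps the other in any panel, and knockdown replicate 3 (triangle) is the highest knockdown array in each of the 6 genes that fell.

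Vesicle membrane proteins and synapsins had the most even direction of the roles with many members. Of 12, 2 fell, 0 rose, 7 did not pass the test and 3 were below the filter. Of all 9969 genes past the filter 5.16% fell. The knockdown mean was the lower one in 10 of 12, against 41.6% of all named genes. Lower without overlap were 8 (66.7%), against 10.8% of all named genes, and the median log2 fold change of the 12 was -0.35. *Syn2*, a synapsin that tethers vesicles to one another and to actin, read 10.72, 10.85 and 11.24 in knockdown arrays, against 11.68, 11.32 and 11.49 in control arrays. The groups did not overlap, but knockdown replicate 3 came close to control replicate 2. *Syn2* was 1.47-fold lower in knockdown cells, at -0.56 (SE 0.15, adjusted p = 0.0367).

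*Syn3*, the synapsin most associated with developing neurons, read 8.07, 7.98 and 8.20 in knockdown arrays, against 8.66, 8.54 and 8.50 in control arrays. Its values were tight within each group and did not overlap. *Syn3* was 1.40-fold lower in knockdown cells, at -0.48 (SE 0.12, adjusted p = 0.0278). *Syn1*, the most studied synapsin, had knockdown values of 9.98, 9.92 and 10.23, against 10.43, 10.17 and 10.25 in control arrays. Here knockdown replicate 3 lay among the controls, and the log2 fold change of -0.24 (95% interval -0.51 to 0.04) did not pass the test.

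Vesicle proteins *Sncb* and *Syp* lay just outside the threshold. *Sncb*, the vesicle-associated beta-synuclein, read 9.25, 9.37 and 9.58 in knockdown arrays, against 9.78, 9.74 and 10.02 in control arrays, a log2 fold change of -0.45. *Syp*, synaptophysin, which binds VAMP2 on the vesicle, read 9.63, 9.58 and 9.64 in knockdown arrays, against 9.82, 10.14 and 10.11 in control arrays, a log2 fold change of -0.41. Neither gene had overlapping groups, and the adjusted p-values of 0.0521 and 0.0587 were the closest to the threshold from above, followed by *Nsf* at 0.0657. On the near side of the threshold stood *Syn2*, *Cplx1* at 0.0323 and *Syn3*.

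SV2 proteins are glycosylated transporter-like proteins of all synaptic vesicles and bind synaptotagmin. *Sv2b* read 6.97, 6.72 and 6.87 in knockdown arrays, against 7.49, 7.13 and 7.07 in control arrays, and *Sv2c* 12.29, 12.30 and 12.13, against 12.55, 12.67 and 12.53. The arrays of each group kept apart in both genes, by a wide margin in *Sv2c* and a narrow one in *Sv2b*. Their log2 fold changes of -0.38 (95% interval -0.67 to -0.08) and -0.34 (-0.59 to -0.09) did not pass the test. *Sv2a* was also lower without overlap, but by 0.13 on the log2 scale, and lay below the filter.

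Synaptogyrins are membrane-spanning relatives of synaptophysin. *Syngr1* read 10.76, 10.71 and 10.96 in knockdown arrays, against 11.26, 11.07 and 11.15 in control arrays, with no overlap. Its log2 fold change of -0.35 (95% interval -0.61 to -0.09) did not pass the test, and *Syngr2* and *Syngr3* were below the filter, at 0.04 and -0.03. *Sypl*, a synaptophysin relative found outside neurons, was the exception in direction, at 10.13, 10.09 and 10.05 in knockdown arrays against 9.86, 9.80 and 9.85 in control arrays. It was higher without overlap, with a log2 fold change of 0.25 (95% interval 0.01 to 0.50), and did not pass the test.

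Among 15 calcium sensors and complexins, 2 fell, 1 rose, 7 did not pass the test and 5 were below the filter, with a median log2 fold change of -0.13. Past the filter, 5.16% of all 9969 genes fell and 2.39% rose. *Syt1*, the fast calcium sensor of synaptic and dense-core vesicle release, read 12.06, 12.12 and 12.33 in knockdown arrays, against 12.86, 12.67 and 12.74 in control arrays. The gap between the groups exceeded the spread within either. The log2 fold change of *Syt1* was -0.59 (SE 0.12, adjusted p = 0.0136). *Syt7*, the high-affinity sensor of slower release, read 8.61, 8.60 and 8.67 in knockdown arrays, against 8.97, 9.16 and 9.30 in control arrays. Its knockdown arrays were nearly level and its controls were spread out. *Syt7* was 1.43-fold lower in knockdown cells, at -0.52 (SE 0.12, adjusted p = 0.0237).

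Several other synaptotagmins were lower in the mean without passing. *Syt4*, a family member that binds calcium weakly in mammals, read 11.27, 11.32 and 11.35 in knockdown arrays, against 11.70, 11.63 and 11.59 in control arrays, a log2 fold change of -0.33 (95% interval -0.57 to -0.09). *Syt17* read 9.72, 9.57 and 9.92 in knockdown arrays, against 10.05, 10.09 and 10.23 in control arrays, a log2 fold change of -0.38 (95% interval -0.65 to -0.11). The groups of both genes were apart. *Syt5*, of dense-core vesicles, was at -0.33 with overlapping groups, *Syt6* at -0.27 without overlap, and *Syt3* at -0.13 with overlap. *Syt2*, a fast sensor like *Syt1*, was at 0.02, and *Syt9*, *Syt11* and *Syt13* lay between -0.03 and 0.06, all 4 below the filter.

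The complexins, small proteins that bind the assembled SNARE complex, had opposite signs. *Cplx1* read 10.83, 10.75 and 10.61 in knockdown arrays, against 10.20, 10.26 and 10.34 in control arrays. Its groups were separate, with knockdown replicate 3 and control replicate 3 the nearest to each other. *Cplx1* was 1.38-fold higher in knockdown cells, at 0.46 (SE 0.12, adjusted p = 0.0323). *Cplx2* read 7.80, 8.28 and 8.07 in knockdown arrays, against 8.43, 8.46 and 8.43 in control arrays. The controls were nearly identical and the knockdown arrays scattered below them, and the log2 fold change of -0.39 (95% interval -0.68 to -0.11) did not pass the test. The difference between the 2 complexins was not tested. *Doc2b* and *Rph3a*, which encode C2-domain proteins of vesicle priming, were at 0.13 (below the filter) and 0.16 (95% interval -0.10 to 0.42).

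**Figure D3:**
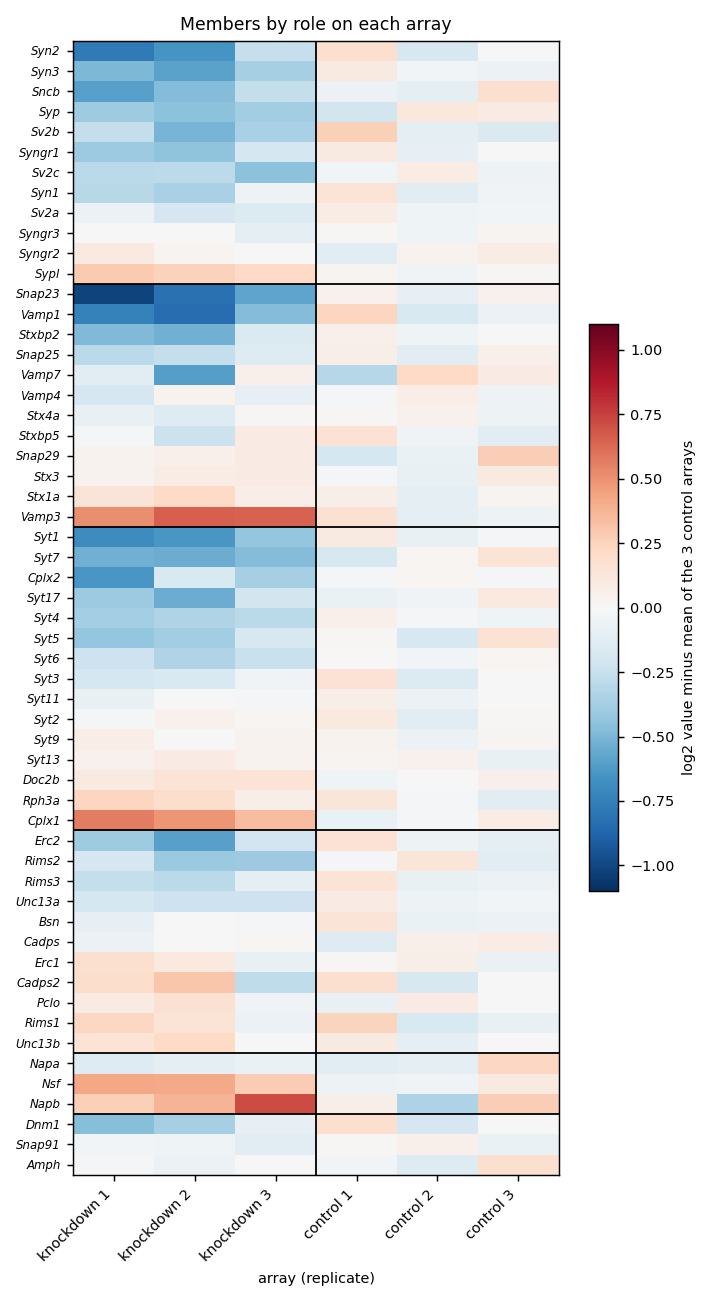
Log2 value of each measured member on each array minus the mean of its 3 control arrays, with the knockdown arrays left of the black line, the control arrays right of it, and horizontal lines between roles. Blue is below and red above the control mean, and the deepest blue cells are those of *Snap23* in knockdown replicate 1 and *Vamp1* in knockdown replicate 2.

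In the active zone, where vesicles dock and become ready to fuse, 0 of 11 members rose or fell; 6 did not pass the test and 5 were below the filter, and the median log2 fold change was -0.02. By limma in the fit to all named genes, 4 of the 11 had an unadjusted p under 0.05, as had 3669 of all 19938. Some scaffolds were lower in the mean without passing. *Erc2*, an active zone scaffold of the ELKS family, read 8.27, 8.06 and 8.44 in knockdown arrays, against 8.82, 8.60 and 8.55 in control arrays, a log2 fold change of -0.40 (95% interval -0.68 to -0.12). *Rims2*, a RIM that links Rab3 on vesicles to Munc13 and calcium channels, read 9.92, 9.69 and 9.70 in knockdown arrays, against 10.08, 10.23 and 9.99 in control arrays, a log2 fold change of -0.33 (95% interval -0.60 to -0.07). Neither had overlapping groups, with adjusted p-values of 0.0797 and 0.114 in limma. *Rims3* was also lower without overlap, at -0.22, whereas *Rims1* was at 0.11 with overlapping groups.

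*Unc13a*, which encodes the main Munc13 priming factor of neurons, has 3 clusters. The brightest was kept, at 11.29, 11.26 and 11.26 in knockdown arrays against 11.57, 11.43 and 11.45 in control arrays, a log2 fold change of -0.21 (95% interval -0.46 to 0.03). The other two clusters gave -0.44 without overlap and -0.15 with overlap. *Unc13a* passed the test where the cluster with the largest interquartile range was taken for each gene. *Unc13b*, the large scaffolds *Bsn* and *Pclo*, *Erc1* and the dense-core vesicle priming factor *Cadps* were below the filter, between -0.04 and 0.12. *Cadps2* was at 0.07 (95% interval -0.26 to 0.40).

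Of the 3 members that take SNARE complexes apart, 2 did not pass the test and 1 was below the filter (limma). In the limma fit to all named genes 2 of the 3 had an unadjusted p under 0.05, as had 3669 of all 19938 genes. *Nsf*, the ATPase that unwinds spent SNARE complexes, read 10.96, 10.96 and 10.82 in knockdown arrays, against 10.49, 10.50 and 10.64 in control arrays. All knockdown arrays were above all controls, and its log2 fold change was 0.37 (95% interval 0.12 to 0.62, adjusted p = 0.0657). *Napb*, the neuronal adaptor that brings NSF to the complex, had a log2 fold change of 0.45 (95% interval 0.10 to 0.80, adjusted p = 0.102). Knockdown values of *Napb* were 11.12, 11.23 and 11.57, against control values of 10.92, 10.52 and 11.13, so that control replicate 3 reached into the knockdown range. *Napa*, the adaptor used in most cells, was below the filter at -0.11.

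Of 3 members that retrieve membrane 0 passed the test in limma. In the limma fit to all named genes 1 of the 3 had an unadjusted p under 0.05, as had 3669 of all 19938 genes. *Dnm1*, the neuronal dynamin that cuts vesicles from the plasma membrane, read 10.92, 11.02 and 11.30 in knockdown arrays, against 11.57, 11.20 and 11.39 in control arrays, with a log2 fold change of -0.31 (95% interval -0.60 to -0.01). Its groups overlapped through knockdown replicate 3. *Snap91*, the clathrin adaptor AP180, and *Amph*, amphiphysin, were below the filter, at -0.07 and -0.03.

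The same steps were followed in 156 other genes of vesicle traffic, of which 150 were measured. Of these 5 fell and 0 rose, 68 did not pass the test and 77 were below the filter, with a median log2 fold change of -0.04. Past the filter 5 of 73 of these genes fell and 0 rose, against 5.16% and 2.39% of all 9969 genes. Vesicular monoamine transporters load catecholamines and serotonin into vesicles, and both fell. *Slc18a2* (VMAT2) read 11.50, 11.39 and 11.80 in knockdown arrays, against 12.48, 12.40 and 12.48 in control arrays (adjusted p = 0.00244). *Slc18a1* (VMAT1) read 7.22, 7.05 and 7.65 in knockdown arrays, against 7.93, 7.82 and 8.16 in control arrays (adjusted p = 0.0225). In neither did the groups overlap. The active zone partners *Cask*, a scaffold of the membrane-associated guanylate kinase family, and *Lin7c*, a small PDZ protein that binds it, fell by 0.44 and 0.45 on the log2 scale (adjusted p = 0.0447 and 0.0428).

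The clathrin light chains coat vesicles that bud from membranes. *Clta* fell by 0.44 on the log2 scale (adjusted p = 0.0384), with 9.07, 9.03 and 9.08 in knockdown arrays against 9.36, 9.57 and 9.57 in control arrays. *Cltb* read 11.34, 11.46 and 11.26 in knockdown arrays, against 10.90, 10.94 and 11.12 in control arrays, a log2 fold change of 0.36 that did not pass the test (adjusted p = 0.0797). Neither gene had overlapping groups, and the difference between the genes was not tested. No gene passed among 30 other SNAREs and regulators, 21 other calcium sensors and complexins, 17 subunits of the V-ATPase, the proton pump that powers vesicle loading, and 9 exocyst genes, which tether vesicles at the plasma membrane. The medians of these lists were -0.04, 0.04, -0.09 and -0.12, and 4, 4, 3 and 1 of their genes had an unadjusted p under 0.05 (limma, all named genes), as had 3669 of all 19938 genes.

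**Figure D4:**
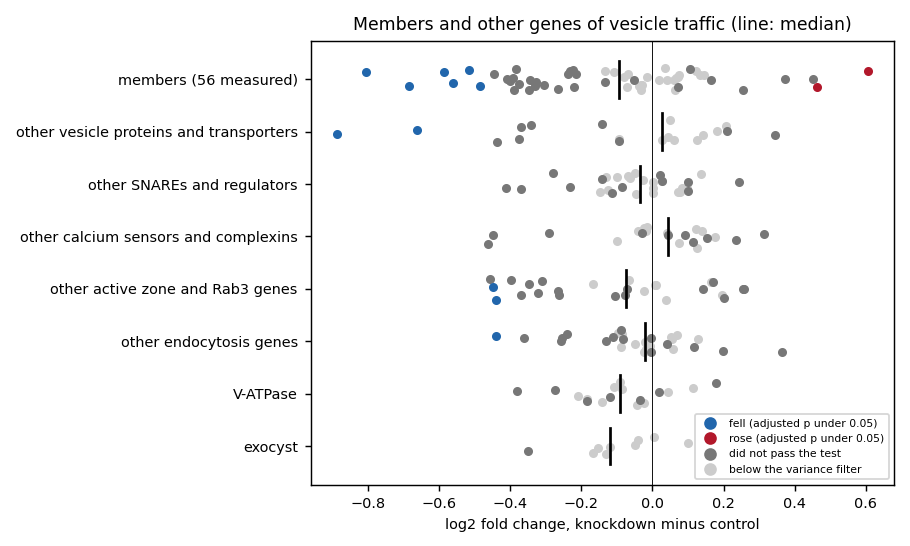
Log2 fold change, knockdown minus control, of the 56 measured members (top row) and of 7 other lists of vesicle traffic genes, each point a gene and each black line the median of the list. The 5 genes that fell outside the members are the 2 monoamine transporters, *Cask*, *Lin7c* and *Clta*, and the only red points, *Vamp3* and *Cplx1*, are in the top row.

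Some markers of the neuroblastoma line also fell. Of 13 measured markers of N2A cells and sympathetic neurons 3 fell, 0 rose, 5 did not pass the test and 5 were below the filter. Over all 9969 genes past the filter, 5.16% fell. Those that fell were *Th* and *Dbh*, the first and last enzymes of noradrenaline synthesis, at -0.68 and -1.09, and the granin *Chgb* at -0.45. The knockdown mean was higher in 3, *Elavl4*, *Nefl* and *Nefm*, at 0.20, 0.21 and 0.07. *Tubb3*, *Gata3* and *Hand2* were at -0.05, -0.10 and -0.11, with overlapping groups. The mean of the 13 genes lay 0.24, 0.25 and 0.16 below the control mean in knockdown replicates 1 to 3. Their part in the differences of the vesicle genes was not tested. Markers of glia had means of 6.95, 6.92 and 6.89 in knockdown arrays, against 6.97, 6.79 and 6.76 in control arrays, so that the groups overlapped.

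How firmly each of the 8 calls stands differed from gene to gene when 1 array was left out of the fit. *Snap23* passed in 6 of 6 such fits, with adjusted p between 0.00338 and 0.0492 in limma. *Vamp3* passed in 4, and lost its call without knockdown replicate 2 (0.0656) or control replicate 3 (0.0753). *Vamp1* passed in 3, failing without knockdown replicate 2 (0.0733), control replicate 1 (0.0559) or control replicate 3 (0.0705). *Syt7* also passed in 3, failing without knockdown replicate 1 (0.0906), knockdown replicate 2 (0.107) or control replicate 3 (0.114).

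The synapsins and *Syt1* rested on more arrays. *Syn2*, *Syn3* and *Syt1* each passed in 2 fits and failed without knockdown replicate 1 or 2 or control replicate 1 or 3, where their adjusted p ranged up to 0.160, 0.151 and 0.0763. *Cplx1* passed only without knockdown replicate 3, with 0.0533 to 0.153 in the other fits. The direction of all 8 stayed as it was in every such fit, and the log2 fold change of *Snap23* ran from -0.92 to -0.70, that of *Syn2* from -0.71 to -0.45 and that of *Vamp3* from 0.55 to 0.69. Without knockdown replicate 3, 11 members fell and 3 rose, while over all 9969 genes tested 906 fell and 334 rose in that fit, against 514 and 238 with all arrays. Without knockdown replicate 2 or control replicate 3 only *Snap23* passed. Over all 9969 genes tested, 114 fell and 25 rose without knockdown replicate 2, and 87 fell and 25 rose without control replicate 3.

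**Figure D5:**
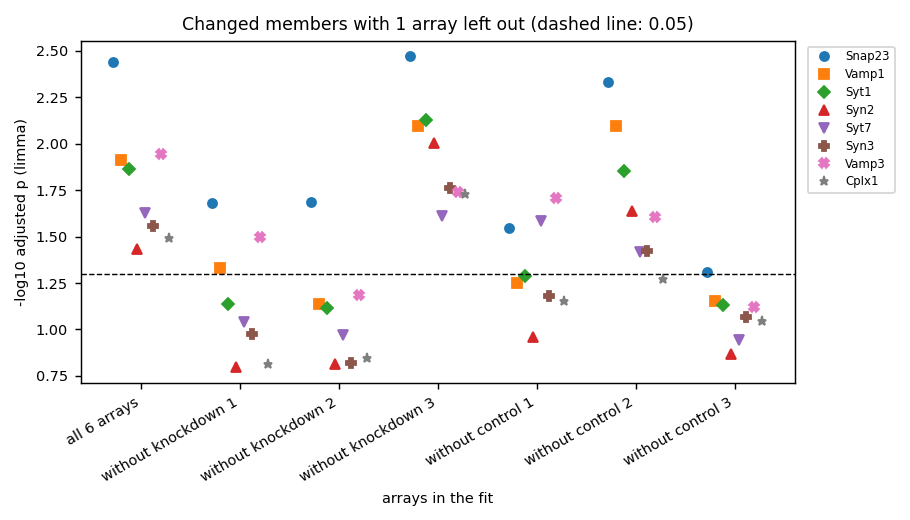
Adjusted p (limma, Benjamini-Hochberg, on a -log10 scale) of the 8 members that changed, in the fit to all 6 arrays and with each array left out in turn; points above the dashed line pass 0.05. *Snap23* (blue circles) is above the line in every fit, all 8 are above it without knockdown replicate 3, and without control replicate 3 only *Snap23* is.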

How the data were processed

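Total RNA of 3 knockdown and 3 control samples, called biological replicates in the study's methods, was labelled from 200 ng for Affymetrix Mouse Gene 1.0 ST arrays. The authors corrected the background, quantile normalised and summarised probes by RMA, so the deposited values are log2 levels of 35556 transcript clusters. For the tool versions and the genome build, the sources used here give nothing.

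Clusters were named by the platform annotation (21789 with 1 symbol, 1621 with several, 12146 with none), and the brightest cluster of each gene was kept. After removal of the 50% of the 19938 genes with the smallest interquartile range, 9969 genes were tested for knockdown minus control with limma 3.58.1 under R 4.3.3 (lmFit, then eBayes). p-values were adjusted by Benjamini-Hochberg over all genes tested. Genes below the filter have intervals from a fit to all named genes. The fits were tested on simulated data. All 56 measured members matched RefSeq gene identifiers, and promoters came from the RefSeq table of GRCm38.p6. With 3 arrays a group, their number limits the precision, and levels were not compared between genes.

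Named members are those that passed, those with no overlap and a log2 fold change of at least 0.3 in size, and the 3 nearest the threshold on either side. The other members are given by their values, and *Snap25*, *Syn1*, *Sypl*, *Unc13a*, *Napb*, *Dnm1* and *Cltb* were chosen for their array values after these were seen. Of each other list up to 3 genes that passed were named. Members and lists were chosen with earlier results of these data known. Alternatives were other variance and intensity filters, other choices of cluster, median centring, quantile normalisation of named genes, array weights, a trended and robust prior, a replicate block, and each array left out.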

Additional observations from a re-analysis of the deposited data

How the results depend on the processing

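Over the alternatives run, no member named turned its sign and the median of the members moved little, between -0.12 and -0.07. With each array left out in turn, the number of members that fell ran from 1 to 11 and the number that rose from 0 to 3, against 6 and 2 with all arrays, while over all genes the numbers ran from 87 to 906 and from 25 to 334, against 514 and 238. The number higher without overlap ran from 7 to 11, against 6, and the number lower without overlap from 22 to 28, against 22. Fewer arrays make overlap less likely in any gene, and the shares over all genes were not worked out for these fits. With clusters without a single gene symbol kept in the fit, 0 members fell and 0 rose (0 of 16852 features passed in limma, with 2833 at an unadjusted p under 0.05). With array weights 24 fell and 6 rose, when 2665 and 2896 of all genes did. The other settings gave 5 to 9 that fell and 2 or 3 that rose. *Syn2* did not pass with no variance filter (adjusted p = 0.0692) or with a filter on dim genes (adjusted p = 0.0545), while the other 7 passed in 10 of 11 settings that kept all arrays. The causes were not tested. Same-numbered samples of the groups did not deviate together (r = -0.29, 0.06 and 0.08 over genes), so the numbers were not taken as pairs. With the replicate block 7 members fell and 2 rose, *Sncb* being the one added (adjusted p = 0.049), and 477 genes fell and 203 rose in all.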
